A study of Homo sapiens with 6 samples.

Results

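Chromosomes 17 and 22 are short, gene-rich human chromosomes, and the regions of open chromatin on them were followed in CCRF-CEM cells given camptothecin. All overlapping peaks of 6 ATAC-seq peak lists (an overlap of at least 1 bp) were merged into union regions, and those on chromosomes 17 and 22 were kept. They number 2094 of the 32037 union regions on chromosomes 1 to 22 and X, or 6.54%, of which 1474 lie on chromosome 17 and 620 on chromosome 22. A list is said to hold a union region when at least 1 of its peaks overlaps it.

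ATAC-seq uses a transposase that cuts DNA not covered by nucleosomes and tags it for sequencing, so that open promoters and enhancers collect reads. CCRF-CEM is an established T lymphoblast line from an acute leukaemia. The parent cells, labelled wild-type, were compared with SLFN11-knockout cells of the same line, and each genotype received DMSO, the solvent, or 100 nM camptothecin for 2 h or for 4 h. Each of the 6 groups was a single library, and the knockout lists share a single line code, so that the genotype and the line cannot be told apart. Without replicates no difference between lists was tested. The 95% intervals given below are Wilson intervals for shares and cover counting error only. Reads amplified by PCR are not independent molecules, and lists of the same cells share most of their strong regions.

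The libraries needed a choice before any comparison. Each peak list carries a library code, and each sample title carries one too, but the code of the list equalled the code in the title of the sample it is recorded under in 0 of 3 parent lists and 0 of 3 knockout lists. The lists are called here by the treatment that the title attached to their code gives. Placed that way, the list called DMSO is recorded under the 4 h sample, the list called 2 h under the DMSO sample and the list called 4 h under the 2 h sample, in both genotypes. Which placement is right was not settled by the files, and values under the recorded placement are given beside the main results.

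Camptothecin traps topoisomerase I on DNA, and the trapped enzyme blocks transcription and replication. SLFN11 is recruited to stressed replication forks and is known for sensitising cancer cells to such drugs, and opening of chromatin has been described in cells that express it. Genes and their promoters are spread unevenly over human chromosomes. Chromosome 17 carries SLFN11 itself, and also BRCA1, a gene of homologous recombination, TOP2A, which encodes a type II topoisomerase, and RPA1, whose product binds single-stranded DNA. Chromosome 22 carries CHEK2, a checkpoint kinase gene, EP300, which encodes a histone acetyltransferase, and SMARCB1, a gene of chromatin remodelling. These genes were placed on chromosomes by a RefSeq table of GRCh38.p14. The peaks are in hg19 coordinates, and no gene, exon or promoter was assigned to a peak, so neither the knockout at its target gene nor T cell marker genes were checked here.

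The gene content fits the label. Chromosome 17 had 14.0 protein-coding genes per Mb in the RefSeq table, ranking 2 among 23 chromosomes, and chromosome 22 had 8.88, ranking 5. Chromosome 19 led with 24.8. The pair carried 1620 of 19974 protein-coding genes, or 8.11%, on 4.36% of the span, counted from each chromosome's start to its last region. In union regions per Mb of that span, chromosome 17 ranked 2 with 18.2 and chromosome 22 ranked 6 with 12.1. The span of chromosome 22 includes the stretch before 17047913, where no region lies, which lowers its value. The pair therefore held more than its share of regions by span and less than its share by genes.

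Read totals were not used here, and depth was read from the lists. The lowest local background, recovered from the fold and the p of each entry, was between 1.22 and 1.37 fragments, and it grows with the number of reads. The median background at the peaks differed more: on the pair it was 2.47, 3.69 and 4.22 in the parent DMSO, 2 h and 4 h lists and 2.71, 2.93 and 2.63 in the knockout lists. It was highest in the same 2 lists that held most regions, and its part in the results was not tested. The lists held between 14205 and 23665 merged peaks on all 23 chromosomes, with the parent DMSO list the shortest and the parent 2 h list the longest.

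In the parent cells, the lists placed as camptothecin-treated held about double the regions on these chromosomes that the DMSO list held. The parent DMSO list held 805 of the 2094 regions, or 38.4% (36.4% to 40.5%). The parent 2 h list held 1686, or 80.5% (78.8% to 82.2%), and the parent 4 h list held 1703, or 81.3% (79.6% to 82.9%). The knockout lists stood between these, with 1200 regions under DMSO (57.3%, 55.2% to 59.4%), 1353 at 2 h (64.6%, 62.5% to 66.6%) and 1115 at 4 h (53.2%, 51.1% to 55.4%). The ratio to DMSO was thus 2.09 at 2 h and 2.12 at 4 h in the parent, and 1.13 and 0.929 in the knockout. The lists differ in length, and with each shortened to its 14205 most significant peaks the ratio of peak numbers on the pair was 1.32 at 2 h and 1.44 at 4 h in the parent, and 1.10 and 0.953 in the knockout. Under the recorded placement the ratios of regions held became 1.01 and 0.477 in the parent, where 4 h then stood below DMSO, and 0.824 and 0.887 in the knockout.

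Both chromosomes showed this order of the lists. Chromosome 17 counted 578, 1207 and 1218 regions in the parent DMSO, 2 h and 4 h lists, and 854, 955 and 805 in the knockout lists. Chromosome 22 counted 227, 479 and 485 in the parent lists and 346, 398 and 310 in the knockout lists. On the 21 other chromosomes together the differences between parent lists were smaller: the DMSO list held 43.7% of their regions, the 2 h list 72.3% and the 4 h list 65.7%. Their knockout lists held 59.0%, 63.7% and 58.6%.

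The rank of the pair among 23 chromosomes changed from list to list. In the parent DMSO list chromosome 17 ranked 20 and chromosome 22 ranked 23 by the share of their regions held. In the parent 2 h list they ranked 2 and 3, and in the parent 4 h list again 2 and 3, in both cases behind chromosome 19. In the knockout lists they ranked 17 and 20 under DMSO, 9 and 13 at 2 h, and 20 and 23 at 4 h. Chromosome 18 ranked 22 in the parent DMSO list and 23 in both parent camptothecin lists. The shares are taken over a union of the same lists. Regions found only under parent camptothecin thus lower a chromosome's DMSO share and raise its camptothecin shares together. What this coupling adds to the ranks was not tested. Under the recorded placement the pair ranked 2 and 3 under parent DMSO and at 2 h, and 20 and 23 at 4 h. The knockout ranks became 9 and 13 under DMSO, 20 and 23 at 2 h, and 17 and 20 at 4 h.

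**Figure D1:**
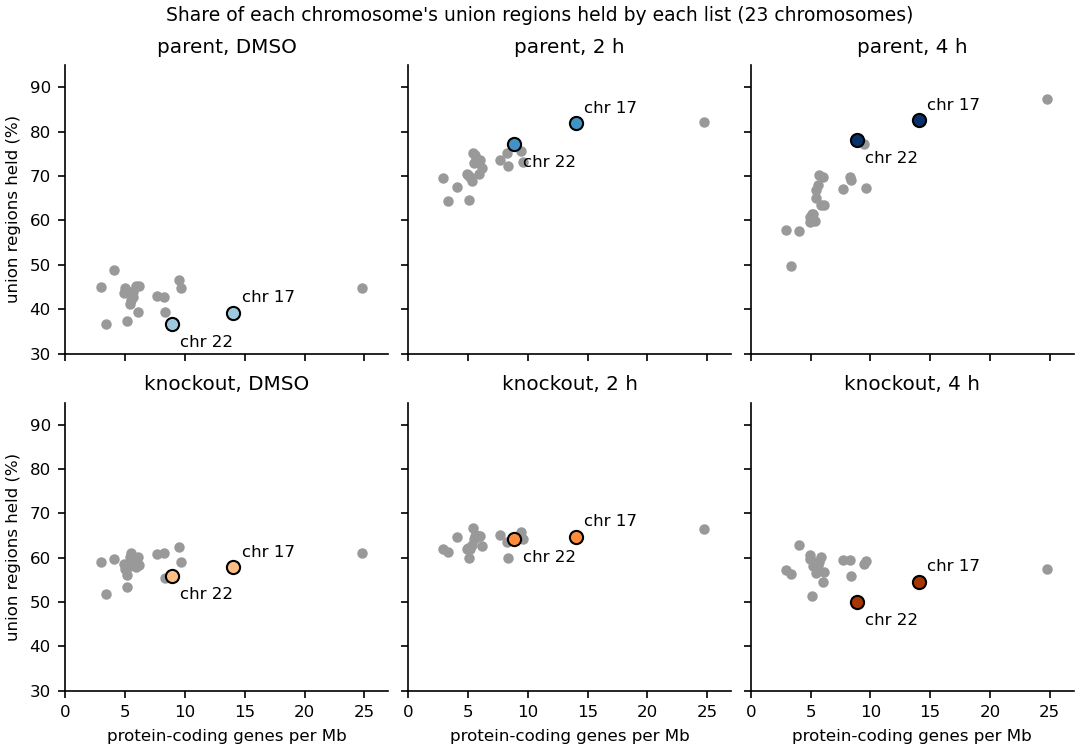
Each panel is a peak list, and each point a chromosome: x, protein-coding genes per Mb (RefSeq, GRCh38.p14); y, share of the chromosome's union regions that the list holds. Chromosomes 17 and 22 (coloured) lie low in the parent DMSO panel, at 39.2% and 36.6%, and high in the parent 4 h panel, at 82.6% and 78.2%. By recorded sample the former list is parent 4 h and the latter parent 2 h.

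The plot of share held against gene density puts these ranks in the setting of all 23 chromosomes. Across them, genes per Mb and the share held had a Pearson r of 0.02 (Spearman rho -0.05) in the parent DMSO list, 0.78 (0.81) in the parent 2 h list and 0.84 (0.89) in the parent 4 h list. In the knockout lists r was 0.29, 0.44 and -0.15 for DMSO, 2 h and 4 h. Without chromosomes 17 and 22 the parent values were 0.17, 0.75 and 0.83, so the relation does not rest on the pair. Leaving out chromosome 19 as well gave 0.11, 0.64 and 0.79. Under the recorded placement the parent r over all 23 chromosomes became 0.78 under DMSO, 0.84 at 2 h and 0.02 at 4 h. The knockout r became 0.44, -0.15 and 0.29. The points share the same libraries and the same union, so these r values are descriptions and carry no p.

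The numbers of peaks per list gave the same picture without the union. Of all peaks in a list, the share on chromosomes 17 and 22 was 5.74% in the parent DMSO list (816 peaks), 7.27% in the parent 2 h list (1721) and 7.93% in the parent 4 h list (1715). It was 6.32% (1219), 6.63% (1386) and 5.97% (1144) in the knockout lists. Peak numbers differ slightly from region counts because 2 peaks of a list can fall in 1 union region. The length covered by peaks on the pair was 0.309 Mb, 0.851 Mb and 0.914 Mb in the parent lists and 0.495 Mb, 0.581 Mb and 0.449 Mb in the knockout lists.

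A ratio of peak numbers on the pair was set against the same ratio on the 21 other chromosomes, which cancels differences in list length. On this relative log2 scale the parent 2 h list stood 0.36 above DMSO (0.24 to 0.49) and the parent 4 h list 0.50 above it (0.38 to 0.62). Both comparisons share the DMSO list. The knockout 2 h list was at 0.07 (-0.04 to 0.19) and its 4 h list at -0.09 (-0.21 to 0.03), with intervals that include 0. In lists of equal length the knockout 2 h value was 0.14, with an interval of 0.01 to 0.28 that does not include 0. Between genotypes, knockout against parent gave 0.15 under DMSO (0.01 to 0.28), -0.14 at 2 h (-0.25 to -0.04) and -0.44 at 4 h (-0.55 to -0.33). These intervals treat the peaks of a list as separate counts and hold no spread between cultures.

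The 2 chromosomes gave like values when each was set against all others. Chromosome 17 had a relative log2 ratio of 0.35 at 2 h and 0.48 at 4 h in the parent, ranking 1 and 2 among 23. Chromosome 22 had 0.35 and 0.49, ranking 2 and 1. Chromosome 19, the most gene-rich, had 0.14 and 0.34, ranking 4 and 3. More gene-rich than chromosome 22 (8.88 genes per Mb), chromosome 11 (9.63) had -0.04 at both times, ranking 14. Also above it at 9.47 genes per Mb, chromosome 16 had -0.04 and 0.11, ranking 15 and 8. In the knockout at 2 h chromosome 17 was at 0.07, ranking 4, and chromosome 22 at 0.09, ranking 2, both with intervals that include 0. In the knockout at 4 h chromosome 17 was at -0.06, ranking 18, and chromosome 22 at -0.15, ranking 23.

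The placement of the lists decides the direction of 4 of these values. Under the recorded placement the relative log2 ratio became 0.14 for parent 2 h and -0.36 for parent 4 h, -0.16 for knockout 2 h and -0.07 for knockout 4 h. Knockout against parent then became -0.14 under DMSO, -0.44 at 2 h and 0.15 at 4 h. The parent DMSO list, the shortest, enters both parent comparisons. With the knockout DMSO list in its place, a choice made after seeing the data, the parent values were 0.22 at 2 h and 0.35 at 4 h.

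**Figure D2:**
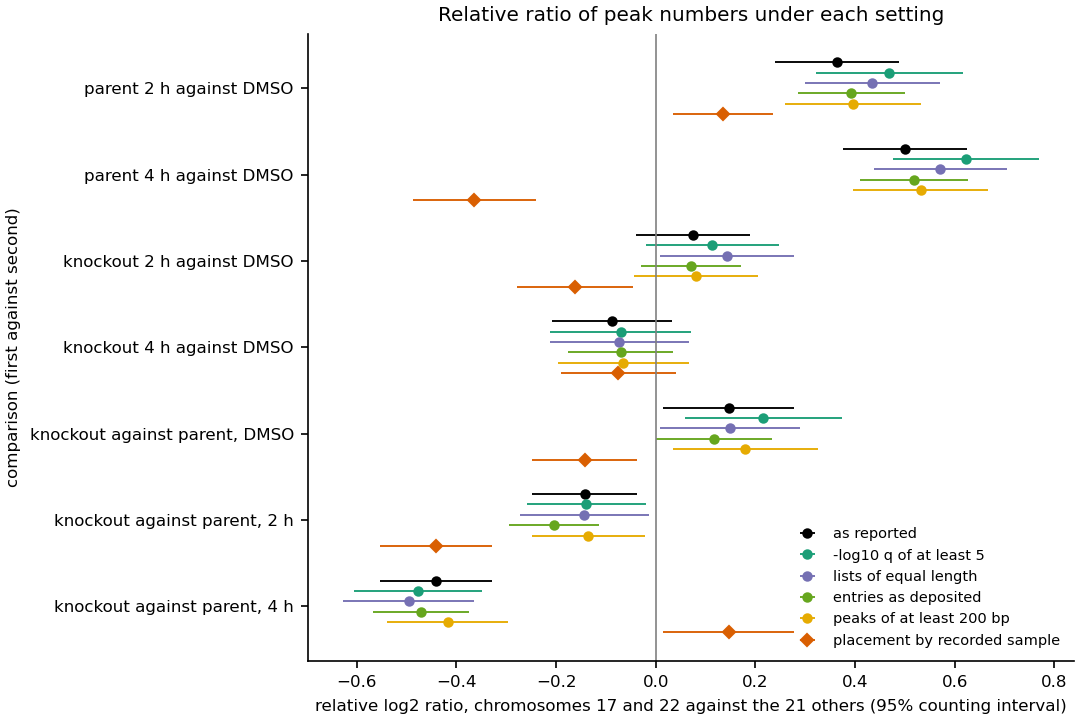
The x axis is the relative log2 ratio of peak numbers on chromosomes 17 and 22, with 95% counting intervals, and the y axis lists the 7 comparisons; colours mark the settings. The values as reported for the parent, 0.36 at 2 h and 0.50 at 4 h, lie right of 0, and the diamonds for placement by recorded sample are at 0.14 and -0.36.

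Region by region, the lists placed as parent camptothecin gained far more than they lost. A region is called gained when the treated list holds it and the DMSO list does not, and lost in the opposite case, among regions that either list holds. At 2 h in the parent, 900 of 1705 regions were gained, or 52.8% (50.4% to 55.1%), against 43% of all union regions in that comparison, and 19 were lost, or 1.11%, against 4.13% of all. At 4 h 926 of 1731 were gained, or 53.5% (51.1% to 55.8%), against 39.4% of all, and 28 were lost, or 1.62%, against 6.63%. The regions of the DMSO list, the shortest of the 6, were thus nearly all present in each treated list. The lost regions were 2.36% of those the DMSO list held at 2 h and 3.48% at 4 h, and on the other chromosomes 7.55% and 11.4%. In lists of equal length the gained share on the pair was 30.8% at 2 h and 35.6% at 4 h, and the lost share 7.31% and 5.76%. Under the recorded placement gained and lost were nearly level at 2 h, with 11.8% and 10.9%, and the direction turned at 4 h, with 1.11% gained and 52.8% lost.

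In the knockout the 2 h list gained more regions than it lost, and the 4 h list lost more than it gained. At 2 h, 292 of 1492 regions were gained, or 19.6% (17.6% to 21.7%), next to 19.5% of all union regions, and 139 were lost, or 9.32%, next to 12.8%. At 4 h, 170 of 1370 were gained, or 12.4% (10.8% to 14.3%), below the 16.3% of all, and 255 were lost, or 18.6% (16.6% to 20.8%), next to 17.2%. The gained share at 2 h and the lost share at 4 h on the pair were thus close to their backgrounds. Placed by recorded sample, 7.90% were gained and 24.1% lost at 2 h, and 9.32% and 19.6% at 4 h.

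Between genotypes the direction depended on the treatment. Under DMSO the knockout list held 458 of 1263 regions that the parent list lacked, or 36.3% (background 31.7%), and lacked 63 that the parent list held, or 4.99% (background 7.21%). At 2 h it held 122 of 1808 that the parent list lacked, or 6.75% (background 11.9%), and lacked 455, or 25.2% (background 22.8%). At 4 h it held 74 of 1777 that the parent list lacked, or 4.16% (background 14.4%), and lacked 662, or 37.3% (background 25.3%). More regions were found in the knockout list alone under DMSO, and more in the parent list alone at both times of camptothecin. The recorded placement turns this under DMSO, with 6.75% in the knockout list alone and 25.2% in the parent list alone, and at 4 h, with 36.3% and 4.99%. At 2 h it gives 4.16% and 37.3%.

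The regions were then grouped by which of the 6 lists hold them. The largest group was held by all 6, with 687 regions or 32.8% of the pair (30.8% to 34.8%), against 34.7% elsewhere. The next groups all lacked the parent DMSO list. There were 207 regions held by every list but that of parent DMSO, or 9.89% (8.68% to 11.2%), against 6.03% elsewhere. A further 189 were held by both parent camptothecin lists and no other, or 9.03% (7.87% to 10.3%), against 4.22% elsewhere. The parent 4 h list alone held 177 (8.45%, elsewhere 5.98%), and the parent 2 h list alone 132 (6.30%, elsewhere 7.79%).

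Regions of a single list other than these were few. The parent DMSO list alone held 11 (0.525%, elsewhere 1.28%), the knockout DMSO list alone 44 (2.1%, elsewhere 3.74%), the knockout 2 h list alone 67 (3.20%, elsewhere 4.78%) and the knockout 4 h list alone 33 (1.58%, elsewhere 4.09%). Genotype-only regions were fewer still: 9 were held by all 3 parent lists and no knockout list, and 3 by all 3 knockout lists and no parent list. All of the latter were on chromosome 17, and chromosome 22 had 0. On the other chromosomes 90 and 226 regions had these patterns, or 0.301% and 0.755%, next to 0.430% and 0.143% on the pair.

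**Figure D3:**
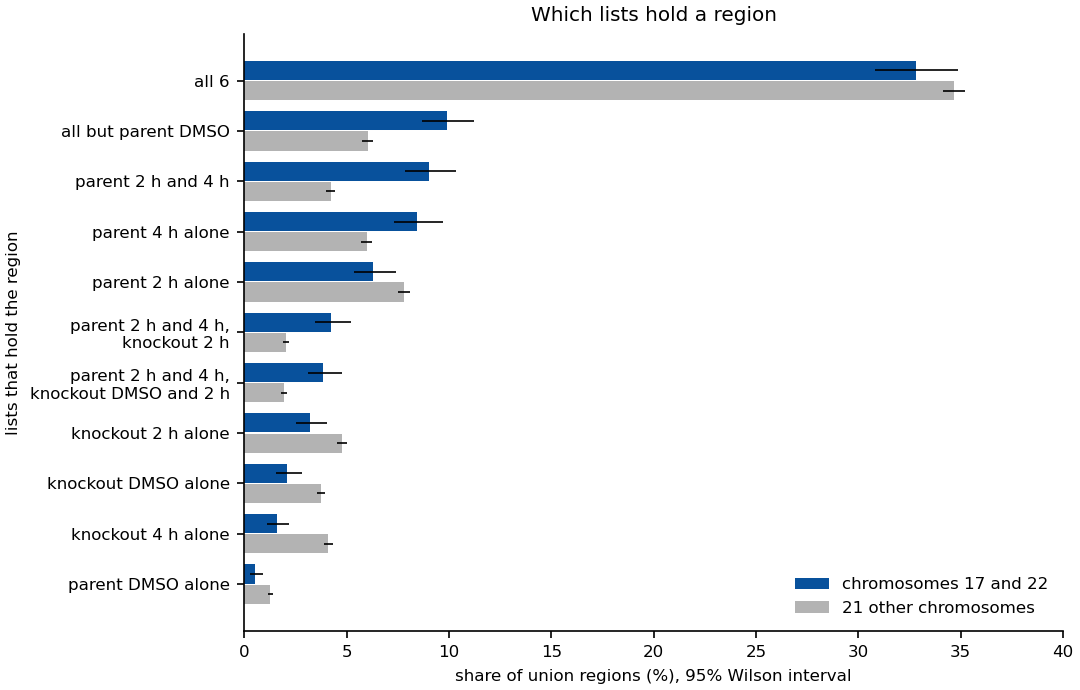
Bars give the share of union regions (x, percent, with 95% Wilson intervals) held by each named combination of lists (y), on chromosomes 17 and 22 and on the 21 other chromosomes. Regions of both parent camptothecin lists and no other make up 9.03% of the pair and 4.22% elsewhere.

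Regions held by both parent camptothecin lists and not by the parent DMSO list, whatever the knockout lists held, numbered 705, or 33.7% (31.7% to 35.7%). Over all union regions this share was 19.8%. By chromosome it was 34.5% on 17 and 31.6% on 22, ranking 1 and 2 of 23, with 30.8% on chromosome 19 and a range of 10.2% to 30.8% over the 21 others. The pattern joins 2 comparisons with the same DMSO list, so their agreement is partly fixed by that list. Of the 705 regions, 350 (49.6%) were also held by the knockout DMSO list, and 355 were held by neither DMSO list. The split was similar on the other chromosomes, where 2966 such regions (52.7%) were also held by the knockout DMSO list and 2658 by neither. The same pattern in the knockout, both camptothecin lists and not DMSO, was found in 89 regions, or 4.25%, next to 4.89% over all union regions. With recorded samples, the parent pattern was found in 4 regions of the pair, or 0.191%, and the knockout pattern in 35, or 1.67%.

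These gained regions were weaker than the regions of all 6 lists. Their median fold, the authors' enrichment of a peak's summit over local background, was 5.62 in the parent 2 h list and 5.81 in the parent 4 h list, and their median width in the union was 485 bp. Regions of all 6 lists had median folds of 8.95 and 9.88 in the same lists and a median width of 780 bp. Those held by both parent camptothecin lists and no other had medians of 4.68 and 4.90 and a width of 342 bp. Regions of the parent 2 h list alone (median fold 4.14, width 205 bp) and of the parent 4 h list alone (4.30, 212 bp) had lower medians still. A median of 12 fragments at the summit stood behind both of these last groups, so a region's absence from another list is uncertain there. Lower again were regions of the knockout DMSO, 2 h or 4 h list alone, with median folds of 3.98, 4.00 and 3.98 and widths of 189.5 bp, 192 bp and 182 bp. Regions of all 6 lists had to pass the caller under parent DMSO, and gained regions had to be missing there. Their order in fold and width is therefore partly fixed by the definition.

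The difference between lists was seen in each class of union width. Of the 268 regions below 200 bp on the pair, the parent DMSO list held 3.36%, the 2 h list 34.7% and the 4 h list 40.3%; the other chromosomes gave 7.2%, 29.9% and 22.8%. Among regions from 200 bp to below 500 bp on the pair, 787 in number, the parent DMSO list held 13.2%, the 2 h list 71.3% and the 4 h list 72.3%; the other chromosomes gave 21.6%, 62.8% and 51.5%. Among the 872 regions from 500 bp to below 1000 bp the shares were 62.5%, 99.2% and 98.5%, and elsewhere 74.5%, 97.5% and 94.8%. Of the 167 regions of at least 1000 bp both parent camptothecin lists held 100%, and the parent DMSO list 88.0%. In the knockout, regions from 200 bp to below 500 bp were held at 33.8%, 44.3% and 29.4% by the DMSO, 2 h and 4 h lists. Width was measured on the union, to which the parent camptothecin lists contribute their wider peaks.

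Regions were closely spaced on both chromosomes, and few gained regions lay beside a region of all 6 lists. The median gap between union regions was 23.7 kb on chromosome 17 and 26.8 kb on chromosome 22, ranking 3 and 4 of 23 from the shortest. The 705 gained regions lay a median of 37481.5 bp from the nearest region of all 6 lists, and 6.81% lay within 5 kb of such a region, against 7.84% on the other chromosomes. Peaks with more than 1 summit made up 23.1% of held regions in the parent DMSO list, 31.3% at 2 h and 29.7% at 4 h, and 24.1%, 25.5% and 25.1% in the knockout lists.

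Peaks were also wider and higher in the parent camptothecin lists. On the pair the median width of a held region's peak was 343 bp in the parent DMSO list, 458 bp at 2 h and 500 bp at 4 h, and in the knockout 367 bp, 386 bp and 355 bp. The median fold was 5.36, 6.65 and 7.08 in the parent and 5.63, 5.87 and 5.62 in the knockout. Peaks of at least 1000 bp numbered 5, 100 and 123 in the parent lists and 20, 32 and 19 in the knockout lists. As shares of held regions these were 0.621%, 5.93% and 7.22% in the parent, below 2.16%, 7.57% and 8.21% on the other chromosomes. In the knockout they were 1.67%, 2.37% and 1.70%, below 3.03%, 3.51% and 2.60%. The other chromosomes had nearly the same medians of width (363 bp, 460 bp and 494 bp in the parent) and fold (5.71, 6.57 and 6.96).

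Medians over different regions do not compare the same sites, so the 687 regions of all 6 lists were compared directly. The median summit pileup, the number of fragments over the summit, was 18, 48 and 67 in the parent DMSO, 2 h and 4 h lists. The knockout lists had 25, 29 and 23. Divided by each list's lowest background, the median log2 difference from DMSO was 1.29 for the parent 2 h list and 1.8 for the 4 h list, a height 2.45 and 3.48 times that under DMSO. It was higher than under DMSO at 665 and 664 of the 687 regions, or 96.8% and 96.7%, next to 93.7% and 90.1% on the other chromosomes. In the knockout the median log2 difference was 0.10 at 2 h and -0.20 at 4 h, with 417 and 203 regions higher. These were 60.7% and 29.5%, next to 59.3% and 32.5% elsewhere. The recorded placement gave parent medians of 0.51 at 2 h and -1.29 at 4 h, and knockout medians of -0.31 and -0.10.

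The same measure on 10383 regions of the other chromosomes gave 1.16 and 1.45 in the parent, and 0.08 and -0.17 in the knockout. By chromosome, 17 ranked 1 of 23 at both times in the parent, with 1.34 and 1.81. Chromosome 22 ranked 11 at 2 h, with 1.18, and 3 at 4 h, with 1.74. The pair thus stood apart in height less evenly than in peak numbers. Between genotypes, knockout against parent was 0.38 under DMSO, -0.79 at 2 h and -1.63 at 4 h on the pair, and 0.30, -0.75 and -1.32 elsewhere. Since all these regions passed the caller in all 6 lists, regions missing from any list are not among them.

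**Figure D4:**
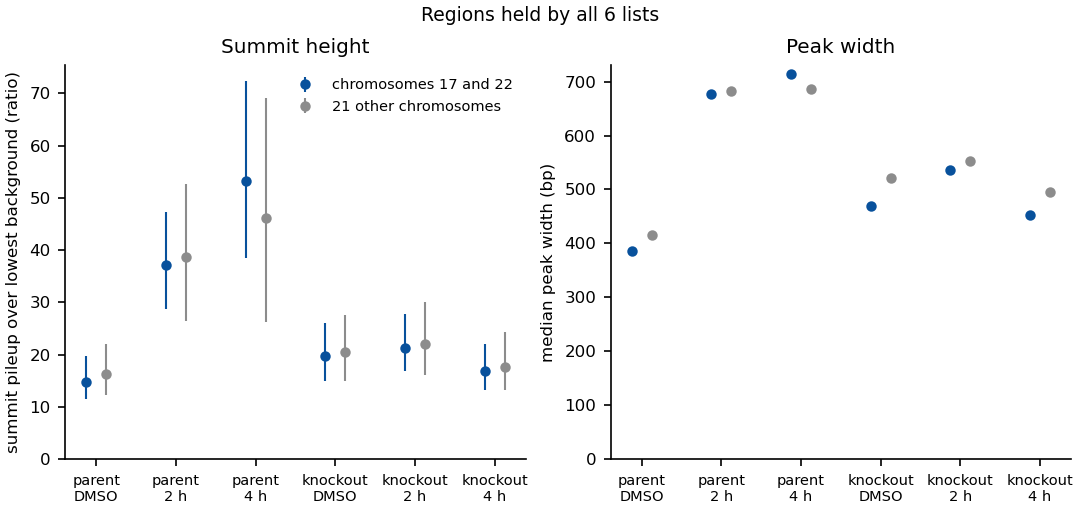
Left, median summit pileup divided by the list's lowest background (ratio; bars, lower and upper quartile over regions); right, median peak width in bp, both for regions held by all 6 lists, by list on the x axis. On chromosomes 17 and 22 the median height was 14.7, 37.2 and 53.3 in the parent DMSO, 2 h and 4 h lists and 19.7, 21.2 and 16.9 in the knockout lists.

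Along the chromosomes, regions were counted in bins of 5 Mb. Chromosome 17 filled 17 bins and chromosome 22 filled 8, with its leftmost region starting at 17047913. In each of the 25 bins both parent camptothecin lists held more regions than the parent DMSO list. The parent DMSO list held the fewest of the 6 lists in 24 bins. The ratio of regions held at 2 h to those under DMSO ran from 1.08 to 2.45 over the bins (median 2.05), and at 4 h from 1.2 to 2.61 (median 2.1). The parent DMSO list is the shortest, and on the other chromosomes together these ratios were 1.66 and 1.51. Bins of other chromosomes were not counted, so the bin counts cannot be called particular to the pair. In the knockout the 2 h list held more than DMSO in 19 bins, as many in 4 and fewer in 2, with ratios from 0.852 to 1.36. Its 4 h list held more in 2, as many in 2 and fewer in 21, with ratios from 0.762 to 1.13. Under the recorded placement the parent 2 h list held more than DMSO in 16 bins and fewer in 7, and the parent 4 h list held fewer in all 25.

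Regions were clustered unevenly. On chromosome 17 the bin at 40 to 45 Mb held the most, 150, followed by those at 0 to 5 Mb and 75 to 80 Mb with 137 each, and the bins at 50 to 55 Mb and 10 to 15 Mb held the fewest, 22 and 27. On chromosome 22 the bins at 20 to 25 Mb and 35 to 40 Mb held 129 and 116, and the bins at 50 to 55 Mb and 45 to 50 Mb held 40 and 49. The bin at 50 to 55 Mb of chromosome 22 is cut short by the chromosome's end. Over 25 bins the number of regions and the share held by both parent camptothecin lists but not DMSO had r = 0.57 and rho = 0.52, and the like share in the knockout had r = 0.03. Gained regions are counted among the regions of a bin, so the number and the share are not independent. Neighbouring bins share the same 6 libraries, and these values carry no p.

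**Figure D5:**
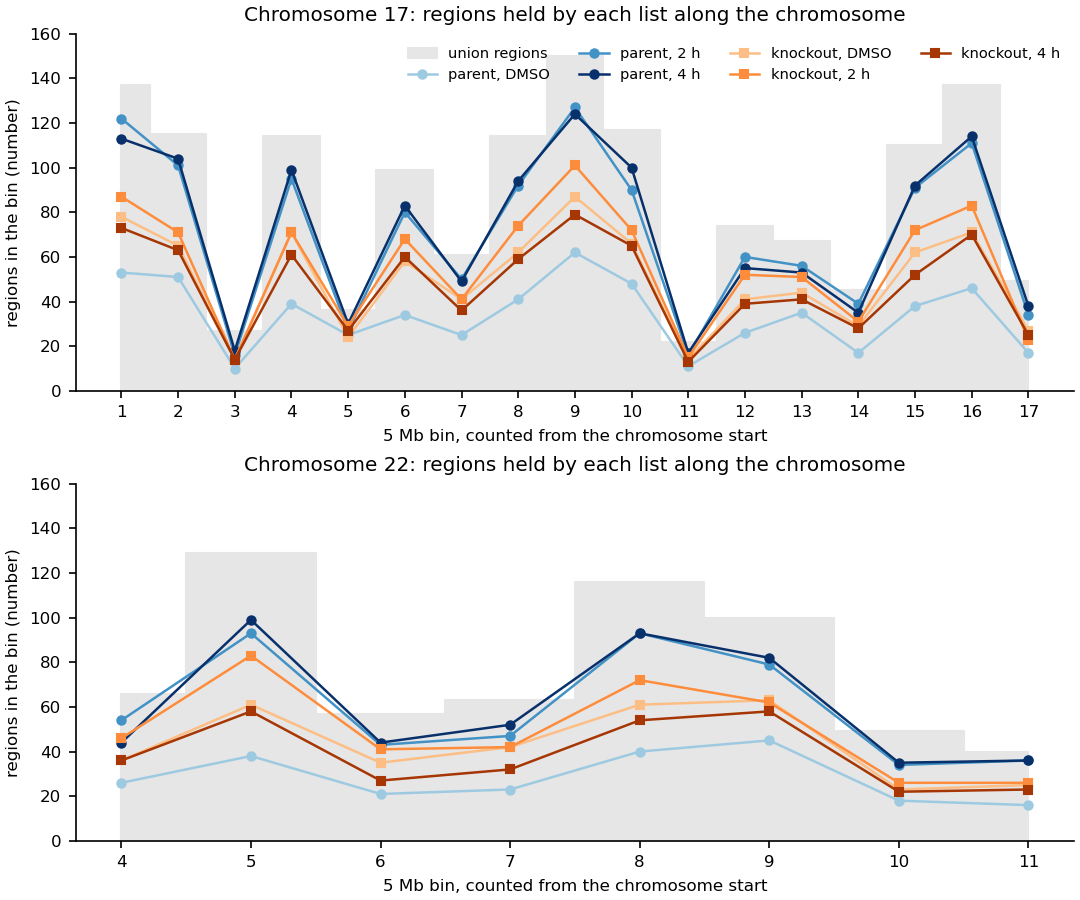
Regions held by each list (y, number) in consecutive 5 Mb bins (x) of chromosomes 17 and 22; the grey area is the number of union regions in the bin. Both parent camptothecin lines lie above the parent DMSO line in all 25 bins, and bin 5 of chromosome 17, with 25, 27 and 30 regions, has the smallest gap.

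The bin with the largest parent gain was 15 to 20 Mb of chromosome 17. Of its 114 regions, the parent DMSO list held 39, the 2 h list 95 and the 4 h list 99, and the knockout lists held 71, 71 and 61. There, 50 regions (43.9%) were held by both parent camptothecin lists and not by DMSO. The neighbouring bin at 20 to 25 Mb had the smallest gain, 5 of 36 regions or 13.9%. Its parent lists held 25, 27 and 30 regions, its knockout lists 24, 29 and 27, and 58.3% of its regions were held by all 6 lists. This bin contains most of the widest stretch without a region on chromosome 17, from 22261677 to 25263814.

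On chromosome 22 the largest parent gain was at 50 to 55 Mb, where 16 of 40 regions (40%) had that pattern and the parent lists held 16, 36 and 36 regions. The bin at 20 to 25 Mb followed with 45 of 129 (34.9%). The smallest was at 15 to 20 Mb with 16 of 66 (24.2%), where the parent lists held 26, 54 and 44. In the knockout the share of regions in both camptothecin lists and not DMSO stayed between 0% and 10.2% in all 25 bins, with the highest at 45 to 50 Mb of chromosome 22 (5 of 49). The parent gain was above the knockout gain in 25 of 25 bins, and on the other chromosomes together the shares were 18.8% and 4.94%.

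Single regions show the range of behaviour, and they were chosen by fixed rules on fold, width and pattern, so their ranks are not findings. The strongest region of all 6 lists was chr17:22020536-22020921. Its fold was 55.2, 55.1 and 54.1 in the parent DMSO, 2 h and 4 h lists and 54.5, 55.1 and 59.1 in the knockout lists, over pileups of 2541 to 3221 fragments. It lies in the bin of smallest gain, and its fold was nearly level in all lists. Whether repeated sequence adds to its pileup was not tested.

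Other strong regions of chromosome 17 were higher in the parent camptothecin lists. At chr17:33478109-33478338 the pileup was 136, 215 and 273 in the parent lists and 123, 155 and 132 in the knockout lists, and the fold ran from 20.9 to 30.7. At chr17:31149428-31149891 the pileup was 219, 318 and 456 in the parent and 247, 261 and 242 in the knockout. At both sites the 2 parent camptothecin lists were above all 4 other lists. On chromosome 22 the strongest region, chr22:18717811-18718228, had nearly level pileups of 40, 43 and 45 in the parent and 45, 39 and 33 in the knockout. The region chr22:37171907-37172696 had 36, 79 and 105 in the parent and 53, 53 and 45 in the knockout. At chr22:18883705-18884142 every knockout list was above every parent list, with 40, 42 and 43 in the parent and 48, 46 and 58 in the knockout.

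The widest regions came apart into several summits. The widest on chromosome 17, chr17:8124103-8126685, spans 2583 bp and was absent from the parent DMSO list. Its peaks covered 2008 bp with 10 summits at 2 h and 2395 bp with 7 summits at 4 h in the parent, and 989 bp, 711 bp and 891 bp in the knockout lists. At chr17:43224947-43227171, held by all 6 lists, the width was 632 bp, 1907 bp and 2017 bp in the parent and 922 bp, 1063 bp and 668 bp in the knockout, with pileups of 33, 90 and 130 and of 34, 52 and 39. The widest region on chromosome 22, chr22:43010508-43012018, measured 868 bp, 1440 bp and 1490 bp in the parent lists and 1003 bp, 1107 bp and 1005 bp in the knockout lists. In all 3 regions the parent camptothecin peaks were wider than those of the other lists. They were chosen by their width in the union, which the widest peaks set, so this order is partly fixed by the choice. At chr22:41487239-41488630, also among the widest, the 2 h peaks covered 1261 bp in the parent and 1251 bp in the knockout.

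Among gained regions, chr17:38375235-38375958 was absent under parent DMSO and had folds of 10.8 at 2 h and 14.9 at 4 h, with 6.41, 7.05 and 4.4 in the knockout lists. The region chr17:74099573-74100083 had folds of 12.1 and 12.2 in the parent camptothecin lists and 4.21 in the knockout DMSO list, and was absent from the other 3 lists. On chromosome 22, chr22:50232359-50232973 had 11.1 and 11.4 in the parent camptothecin lists and 6.61, 8.13 and 7.94 in the knockout lists. All 3 of these regions were thus held by the knockout DMSO list as well.

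Other regions were held by the parent camptothecin lists alone. At chr17:45214479-45214717 the fold was 9.61 at 2 h and 10.9 at 4 h, over pileups of 51 and 58 fragments. At chr17:216859-217285 it was 9.22 and 10.1, over 24 and 27. At chr22:35948440-35948940 it was 7.10 and 11, over 23 and 41.

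Most genotype-only regions that the rules named were weak. The region chr17:38673075-38673499, held by the 3 parent lists, had folds of 4.59, 5.72 and 5.18 over 14, 21 and 20 fragments. An exception was chr17:4699296-4699824, also held by the 3 parent lists, with folds of 4.29, 8.28 and 7.14 over 9, 22 and 20 fragments. On chromosome 22, chr22:21904680-21905213 had 4.59, 4.6 and 5.79 over 11, 10 and 17. The knockout-only region chr17:14331643-14331984 had 4.29, 5.66 and 5.08 over 9, 13 and 11 fragments. With so few fragments at the summit in most lists, the absence of these regions from the other genotype is uncertain at this depth.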

How the data were processed

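ATAC-seq peak lists of 6 libraries were used, 1 per group. Per the submitters' processing notes, the tools, in no order, include BWA 0.7.17, MACS2 2.1.2 and Picard 2.9.2, with Trimmomatic 0.39, Trim Galore 0.6.2 and SAMtools 1.8 also named, and hg19 as the build. Parameters and any shift of reads for the transposase, which can move peak edges, were not given in the sources used here. The score deposited by the authors is 10 times the -log10 q, cut to a whole number. The fold deposited by the authors is a ratio of summit to local background, and it ranks peaks within a list. The deposited lists also give a -log10 p and a -log10 q per entry, made by the authors' peak caller.

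Entries that overlap within a list were joined into peaks and the peaks of all lists into union regions, on chromosomes 1 to 22 and X. Pileup and background were recovered from fold and p under a Poisson model with a pseudocount of 1; at least 99.95% of entries gave a pileup less than 0.02 from a whole number. Merging and recovery were tested on simulated data. No test between groups was possible. The named regions, per chromosome, are those with the highest lowest fold in each pattern of lists and the widest, and the named bins those with most and fewest regions and largest and smallest gain; the text gives some of each. The chromosomes, rules and lists were chosen with earlier results of these data known. Python 3.11.15, NumPy 2.4.6, pandas 2.3.3, SciPy 1.17.1 and Matplotlib 3.10.9 were used.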

Additional observations from a re-analysis of the deposited data

Results flagged for a closer look

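At 4 h against DMSO the relative log2 ratio of peak numbers on chromosomes 17 and 22 was 0.4997 in the parent and -0.0879 in the knockout, so the 2 genotypes point in opposite directions. The difference was not tested, since each group has 1 library, and the knockout interval (-0.21 to 0.03) includes 0. Under the recorded placement the values are -0.36 and -0.07, in the same direction.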

How the results depend on the processing

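The 7 relative log2 ratios kept their direction and stayed within their counting intervals with a -log10 q of at least 5, lists of equal length (14205 peaks), entries as deposited and peaks of at least 200 bp. In lists of equal length the interval of knockout 2 h (0.01 to 0.28) no longer included 0. Under placement by recorded sample, 6 of 7 left their interval: parent 2 h 0.14, parent 4 h -0.36, knockout 2 h -0.16, and knockout against parent -0.14 under DMSO, -0.44 at 2 h and 0.15 at 4 h. With the knockout DMSO list in place of the parent DMSO list, an alternative chosen after seeing the data, the parent values were 0.22 at 2 h and 0.35 at 4 h. The cause was not tested. Gained and lost shares depend more on the settings: over 5 alternatives the gained share of parent 2 h ran from 11.8% to 61.3% and that of parent 4 h from 1.11% to 62.0%, and the lost share of parent 4 h from 0.905% to 52.8%. The lowest gained and highest lost of these come from the recorded placement. With bins shifted by 2.5 Mb the fullest bins held 155 and 138 regions. No paired analysis was possible because each group has 1 library and no result comes from a test. Regions of the parent 2 h or 4 h list alone had a median of 12 fragments at the summit, and peaks of named regions went down to 9. What depth can show is limited at such counts.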
